A study of Rattus norvegicus with 16 samples.

Results

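Genes whose proteins bind or edit RNA were followed across arrays of the rat dentate gyrus, the hippocampal region that holds the granule neurons. They were the heterogeneous nuclear ribonucleoprotein (hnRNP) genes Hnrnpu, Hnrnpk, Hnrnpd and Hnrnpa1, and the adenosine deaminase genes Adarb1 and Adar. The members were all probe sets that the platform annotation gives one of these 6 symbols, which found 11 probe sets among the 8740 that were not controls, and 6 genes of the 5147 that the annotation names. Hnrnpu and Adarb1 were selected on their variation among the trained hours, in which they led, so their differences between hours are given as a description with no test. The other 4 genes were added as relatives.

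Total RNA was hybridised to 16 Affymetrix RGU34A arrays, 1 sample on each. The trained groups were named 0 h, 2 h, 3 h, 12 h and 24 h with 2 arrays each and 6 h with 3 arrays, and the naive group had 3 arrays. The labels describe every array, naive ones included, as coming from rats in passive avoidance training, a task in which an animal learns to withhold a step that was followed by a shock. They give no strain, age or treatment, do not say from what event the hours were counted, and do not say whether replicates were separate animals. The p-values therefore reflect the scatter of these arrays alone, and part of it may be technical.

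Each array was brought to a common trimmed mean, and levels are given below as scaled intensity. An intensity can be compared between arrays for 1 probe set, but not between probe sets. Before scaling the trimmed means spanned 33.3 to 170, a 5.11-fold range, and the correlation of log2 values between any 2 arrays lay between 0.908 and 0.973. Of the granule neuron markers, Calb1 and Neurod1 were above the filter of 16.9 on all 16 arrays and Camk2a on 10, while Tdo2 lay at the lowest level of 5.05 on 14. Markers of other cells were present too, astrocyte, oligodendrocyte and interneuron markers among them. Ttr, the choroid plexus transthyretin gene, ranged from 70.4 to 3982 on trained arrays and from 1786 to 3939 on naive arrays. The 3'/5' signal ratio of beta-actin, which is higher where RNA is degraded or labelling incomplete, was 1.51 to 2.80 on trained arrays and 1.49 to 1.70 on naive arrays. On 12 of 13 trained arrays it was above every naive value.

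The hnRNPs coat nascent transcripts and take part in splicing, export, stability and translation of mRNA. Adenosine deaminases acting on RNA convert adenosine to inosine in double-stranded RNA, and inosine is read as guanosine. In neurons such editing recodes glutamate receptor, serotonin receptor and ion channel transcripts, and Adarb1 encodes ADAR2, the enzyme that edits the glutamine to arginine site of the AMPA receptor subunit Gria2.

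The promoters of Hnrnpu and Adarb1 are printed because these were the members selected on their variation among the trained hours. They run from 250 bases before to 50 bases after the RefSeq gene start in GRCr8, 5' to 3' on the gene's strand. Capitals mark matches, on both strands, to a GC box (GGGCGG), a cAMP response element half-site (TGACG), an AP-1 site (TGACTCA) or a TATA box (TATAAA).
Hnrnpu, chr13:92618531-92618830, minus strand: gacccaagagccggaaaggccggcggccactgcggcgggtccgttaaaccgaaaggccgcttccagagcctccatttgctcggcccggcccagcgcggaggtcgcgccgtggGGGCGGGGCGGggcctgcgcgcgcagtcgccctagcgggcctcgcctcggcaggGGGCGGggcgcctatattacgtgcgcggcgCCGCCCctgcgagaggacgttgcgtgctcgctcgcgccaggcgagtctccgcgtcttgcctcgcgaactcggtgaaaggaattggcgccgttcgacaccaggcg
Adarb1, chr20:11221921-11222220, plus strand: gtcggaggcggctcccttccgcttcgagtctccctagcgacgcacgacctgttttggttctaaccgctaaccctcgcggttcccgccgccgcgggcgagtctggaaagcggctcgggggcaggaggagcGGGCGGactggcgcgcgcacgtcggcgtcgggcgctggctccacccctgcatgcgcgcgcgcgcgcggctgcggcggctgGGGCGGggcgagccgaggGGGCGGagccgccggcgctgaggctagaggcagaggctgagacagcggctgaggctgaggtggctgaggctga
The Hnrnpu window held 4 GC boxes, of which the first and second share 1 base, and the Adarb1 window held 3. Neither window held any of the other 3 motifs. A GC box was present in 33.1% of all 33469 RefSeq promoters of this length, a cAMP half-site in 21.2%, an AP-1 site in 4.63% and a TATA box in 14.2%. The Hnrnpu window was 73% G or C and the Adarb1 window 74.3%, against a median of 51.7% over these promoters. The shares were not matched for this content. The table matched 5 of the 6 members, all but Adar. Hnrnpd had 2 GC boxes and 1 TATA box, and Hnrnpa1 had 2 GC boxes, 3 cAMP half-sites and 1 AP-1 site. The Hnrnpk window, at 35.7% G or C, had no match, and whether it holds the promoter in use was not tested. All matches given are of letters and were not tested for binding.

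Hnrnpu encodes a large nuclear scaffold protein, also called scaffold attachment factor A, that binds RNA and DNA. Its first probe set, D14048_at, read lowest at 3 h and highest at 2 h. Its scaled intensity was 486 and 499 at 0 h, 559 and 595 at 2 h, and 84.7 and 199 at 3 h. It was 447, 383 and 401 at 6 h, 486 and 569 at 12 h, and 427 and 235 at 24 h, against 363, 454 and 468 on the naive arrays. Both arrays of 0 h, 2 h and 12 h lay above all naive arrays, both arrays of 3 h lay below them, and 6 h and 24 h overlapped them. The geometric mean at 3 h was 0.305 of the naive mean, a log2 difference of -1.71, and at 2 h it was 1.35 of the naive mean, a difference of 0.44.

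On the log2 scale the mean was 7.02 ± 0.87 at 3 h (SD, n = 2), 9.17 ± 0.06 at 2 h (SD, n = 2) and 8.73 ± 0.20 in naive samples (SD, n = 3). The order of the geometric means, from the highest, was 2 h, 12 h, 0 h, naive, 6 h, 24 h and 3 h. Neighbours in that order overlapped except at 2 places, between 0 h and naive and between 24 h and 3 h. The highest group mean was 4.44-fold above the lowest. The 2 arrays of 3 h differed from each other: without replicate 2 the 3 h difference from naive was -2.33, and without replicate 1 it was -1.10.

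The second Hnrnpu probe set, D14048_g_at, targets the same sequence record, and its pattern was not the same. It read 253 and 312 at 0 h, 221 and 215 at 2 h, and 186 and 92.8 at 3 h. It read 207, 189 and 215 at 6 h, 202 and 235 at 12 h, and 188 and 108 at 24 h, against 76.9, 201 and 220 on the naive arrays. Both 0 h arrays lay above all naive arrays and every other hour overlapped them. Naive replicate 1 was the lowest array of all. The 3 h difference from naive was -0.20 on this probe set. Replicate 2 was the lower 3 h array here, whereas replicate 1 was the lower one on the first probe set. Across the 16 arrays the pair of probe sets had a Pearson correlation of 0.46, given as a description.

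**Figure D1:**
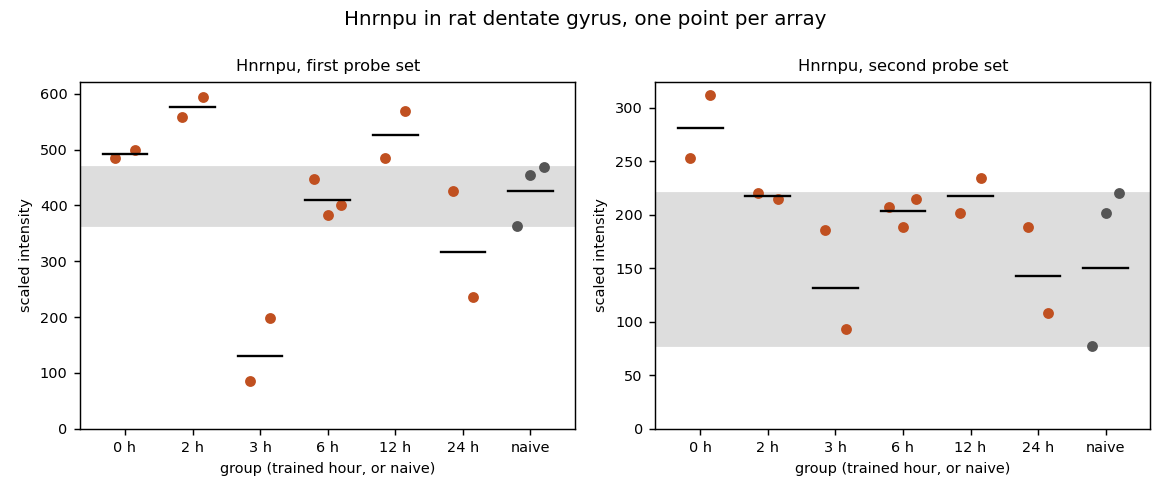
Scaled intensity of both Hnrnpu probe sets, 1 point per array, by trained hour and naive; black lines are geometric means and the grey band spans the 3 naive arrays. On the first probe set both 3 h arrays, at 84.7 and 199, lie below the band, and on the second the 3 h arrays lie within it.

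Whether training as a whole shifted Hnrnpu is a different contrast from the variation among hours that chose it, and was tested. Both use the same trained arrays and share 1 estimate of the spread, so the test is not free of that choice. The mean of the 6 trained hours minus naive was -0.21 (SE 0.21) for the first probe set and 0.35 (SE 0.27) for the second. Neither passed, with limma adjusted p = 0.984 and 0.981. On the first probe set 6 of 13 trained arrays were above the highest naive array and 3 were below the lowest. Without naive replicate 1 the second probe set's difference was -0.13, so its direction rests on that array. The beta-actin ratio was 2.30 to 2.62 at 0 h, 1.96 to 2.69 at 2 h and 2.40 to 2.80 at 12 h, the hours at which the first probe set lay above naive, against 1.49 to 1.70 in naive samples. It was also above every naive array at 6 h (1.92 to 2.30) and 24 h (1.77 to 1.85), where the first probe set overlapped naive, and it was 1.51 to 2.15 at 3 h. With that ratio in the fit the first probe set's differences at 0 h, 2 h and 12 h were -0.38, -0.06 and -0.37, and the 3 h difference was -1.86. In the same fit the second probe set's differences at 0 h, 2 h and 12 h were 1.51, 1.04 and 1.22. The part of RNA quality in these values was not tested.

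Adarb1, measured by U43534_at, read highest at 2 h and lowest at 0 h. Its scaled intensity was 33.3 and 28.5 at 0 h, 107 and 105 at 2 h, and 38.3 and 54.1 at 3 h. It was 62.6, 44.2 and 41.7 at 6 h, 39.2 and 31.3 at 12 h, and 49.2 and 49.3 at 24 h, against 56.5, 69.1 and 63.6 on the naive arrays. Both 2 h arrays lay above all naive arrays. Both arrays of 0 h, 3 h, 12 h and 24 h lay below them, and only 6 h overlapped.

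The 2 h mean was 1.69 of the naive mean, a log2 difference of 0.75, and the 0 h mean was 0.490 of it, a difference of -1.03. The differences at the other hours were -0.47 at 3 h, -0.37 at 6 h, -0.84 at 12 h and -0.35 at 24 h. From the highest, the group means ran 2 h, naive, 24 h, 6 h, 3 h, 12 h and 0 h. The 2 h arrays did not overlap naive, and naive did not overlap 24 h, while each later neighbour in the order overlapped the next. The span from 0 h to 2 h was 3.44-fold. The standard deviation within groups was 0.22 on the log2 scale, and that of the 7 group means was 0.59.

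Over all 6 trained hours Adarb1 was 0.38 below naive on the log2 scale (difference -0.38, SE 0.19, 95% interval -0.78 to 0.01). The unadjusted p was 0.0568 and the limma adjusted p was 0.953, so the difference did not pass. As for Hnrnpu, the test shares its trained arrays and its estimate of the spread with the choice of the gene. Of the 13 trained arrays 10 lay below the lowest naive array and 2, both of 2 h, lay above the highest. Ttr lay below every naive array on 10 of 13 trained arrays as well, and 8 arrays were low on both. The arrays differed at 2 h, where Ttr was low (70.4 and 521) and Adarb1 was highest, and on 0 h replicate 1 and 6 h replicate 3, where Adarb1 was low and Ttr was not. The summed intensity of the 6 of 8 listed choroid plexus markers on the array, Ttr among them, was 230 to 4670 in trained samples. It was 2183 to 5339 in naive samples, and none of the 6 lay at the lowest level on every array. Their mean log2 deviation from the average over all arrays was -1.16 to 1.01 in trained and 0.26 to 2.28 in naive samples, which overlap. With Ttr in the fit the Adarb1 difference was -0.29, and with the beta-actin ratio it was -0.42. In bulk tissue, fewer cells of a type and less RNA per cell cannot be told apart.

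Adar encodes ADAR1, the more widely expressed editing enzyme. U18942_at was dim, above the filter on 15 of 16 arrays. It read 41.5 and 17.2 at 0 h, 47.2 and 36.1 at 2 h, and 31.1 and 30.7 at 3 h. It read 37.6, 11.7 and 27.1 at 6 h, 26.5 and 35.9 at 12 h, and 29.7 and 23.8 at 24 h, against 39.4, 30.0 and 46.1 on the naive arrays. Only the 24 h arrays lay wholly outside the naive range, below it, and the higher one missed it by 29.7 against 30.0. The mean of the trained hours was lower by a log2 difference of -0.37 (SE 0.32), which did not pass (adjusted p = 0.981). With Ttr in the fit the sign turned, to 0.37. The third gene of the family, Adarb2, and the cytidine deaminase Apobec1 were on the array but not above the filter on any array, and Adarb2 lay at the lowest level on 15 of 16.

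**Figure D2:**
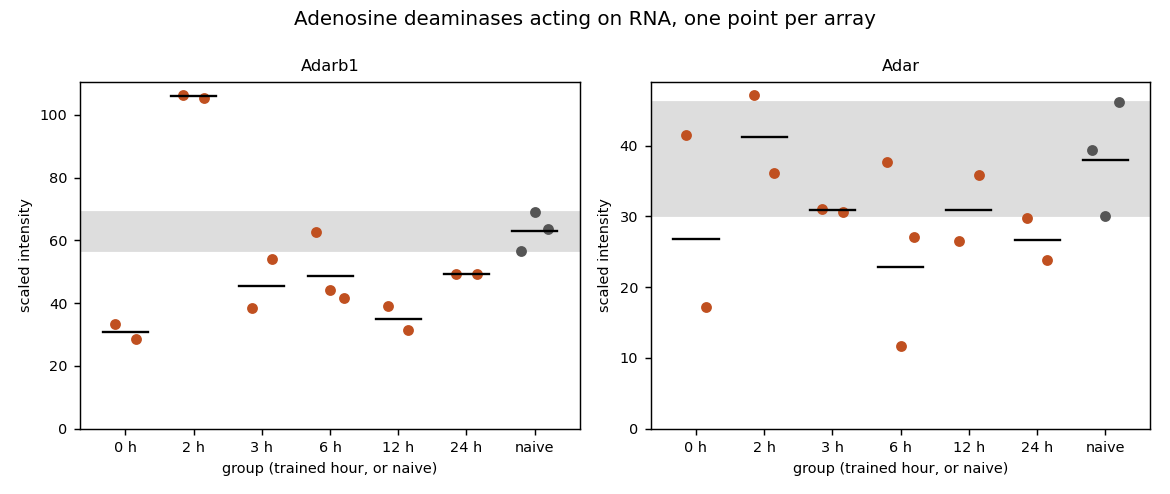
Scaled intensity of Adarb1 and Adar, 1 point per array, by trained hour and naive, with black lines at geometric means and a grey band over the 3 naive arrays. For Adarb1 both 2 h arrays, at 107 and 105, lie above the band and the arrays of 0 h, 3 h, 12 h and 24 h lie below it; for Adar 6 of 13 trained arrays lie below the band and 1 lies above it.

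Hnrnpk binds cytosine-rich RNA and DNA. Both of its probe sets are also annotated to the pseudogene Hnrnpk-ps1, and D17711cds_s_at to the locus LOC100359916 as well, so neither signal can be assigned to Hnrnpk alone. D17711cds_s_at read 361 and 331 at 0 h, 293 and 209 at 2 h, and 219 and 202 at 3 h. It read 275, 124 and 269 at 6 h, 205 and 252 at 12 h, and 236 and 206 at 24 h, against 351, 258 and 311 on the naive arrays. The arrays of 3 h, 12 h and 24 h lay below all naive arrays, and 8 of 13 trained arrays did. The trained mean differed from naive by -0.34 (SE 0.21, adjusted p = 0.981). The other probe set, rc_AA799582_at, spanned 680 to 1122 on trained arrays and 692 to 1193 on naive arrays, overlapped naive at every hour and differed by 0.06 (SE 0.16, adjusted p = 0.999).

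Hnrnpd encodes AUF1, which binds AU-rich elements and affects the decay of mRNAs that carry them. X16933cds_at read 125 and 102 at 0 h, 72.4 and 109 at 2 h, and 94.5 and 76.1 at 3 h. It read 58.7, 46.2 and 81.9 at 6 h, 91.9 and 87.4 at 12 h, and 80.8 and 92.0 at 24 h, against 83.7, 84.8 and 95.5 on the naive arrays. Both 0 h arrays lay above the naive arrays and all 3 of 6 h lay below, the nearest by 81.9 against 83.7. The 6 h difference was -0.54 (SE 0.24), with an unadjusted p of 0.0391 and a limma adjusted p of 0.496. The 0 h difference was 0.36 (SE 0.27, adjusted p = 0.998). Over all trained hours the difference was -0.03 (SE 0.19, adjusted p = 1.00).

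Hnrnpa1 encodes a splicing regulator that often promotes exon skipping and that shuttles between nucleus and cytoplasm. It had 4 probe sets. The first, M12156_at, spanned 171 to 303 on trained arrays and 185 to 236 on naive arrays and overlapped naive at every hour. Its trained difference was 0.08 (SE 0.16, adjusted p = 0.994).

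The other Hnrnpa1 probe sets had a larger scatter within groups, with log2 SDs of 0.53 to 0.64 against 0.22. rc_AA799893_at passed the filter on 5 of 16 arrays, among them both of 12 h. It read 30.6 and 24.8 at 12 h, against 9.31, 10.01 and 12.6 on the naive arrays, and 7.12 to 25.7 at the remaining hours. The fitted 12 h difference was 1.39 (SE 0.54), with an unadjusted p of 0.0202 and an adjusted p of 0.427. All 3 naive arrays were below the filter, so its size is uncertain: it was 0.70 with the lowest level at the 40th percentile and 2.58 with the beta-actin ratio in the fit. The remaining 3 arrays above the filter belonged to 2 h, 6 h and 24 h. The probe set was therefore tested through trained arrays only, and nothing is read from its 12 h difference.

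Its companion rc_AA799893_g_at read 73.2, 110 and 77.1 at 6 h and 106 and 69.1 at 24 h, against 58.9, 65.5 and 42.7 on the naive arrays. Both hours lay above all naive arrays. The differences were 0.64 (SE 0.37, adjusted p = 0.603) at 6 h and 0.64 (SE 0.42, adjusted p = 1.00) at 24 h. With Ttr in the fit the 24 h difference turned to -0.73.

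The fourth Hnrnpa1 probe set, rc_AA965147_at, read 29.5 and 56.5 at 0 h, 40.3 and 56.2 at 2 h, and 24.1 and 10.7 at 3 h. It read 25.2, 99.9 and 40.3 at 6 h, 51.5 and 51.2 at 12 h, and 32.1 and 19.4 at 24 h, against 27.4, 22.1 and 29.7 on the naive arrays. The 2 h and 12 h arrays lay above all naive arrays. The limma F test over the 7 groups gave an unadjusted p of 0.0419 and an adjusted p of 0.480, and over the 6 trained hours 0.0371 and 0.434. Over the trained hours rc_AA799893_at, rc_AA799893_g_at and rc_AA965147_at differed from naive by 0.45 (SE 0.38), 0.27 (SE 0.29) and 0.42 (SE 0.35), none of which passed (adjusted p = 0.981, 0.989 and 0.981). All 4 Hnrnpa1 differences were positive, but the 4 probe sets measure the same gene against the same 3 naive arrays. rc_AA799893_at passed the filter only on trained arrays, so its direction adds no support. Its difference was 0.20 with the lowest level at the 40th percentile. The correlations among the 4 probe sets over the arrays were 0.15 to 0.62. With Ttr in the fit M12156_at and rc_AA799893_g_at turned to -0.21 and -0.59.

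**Figure D3:**
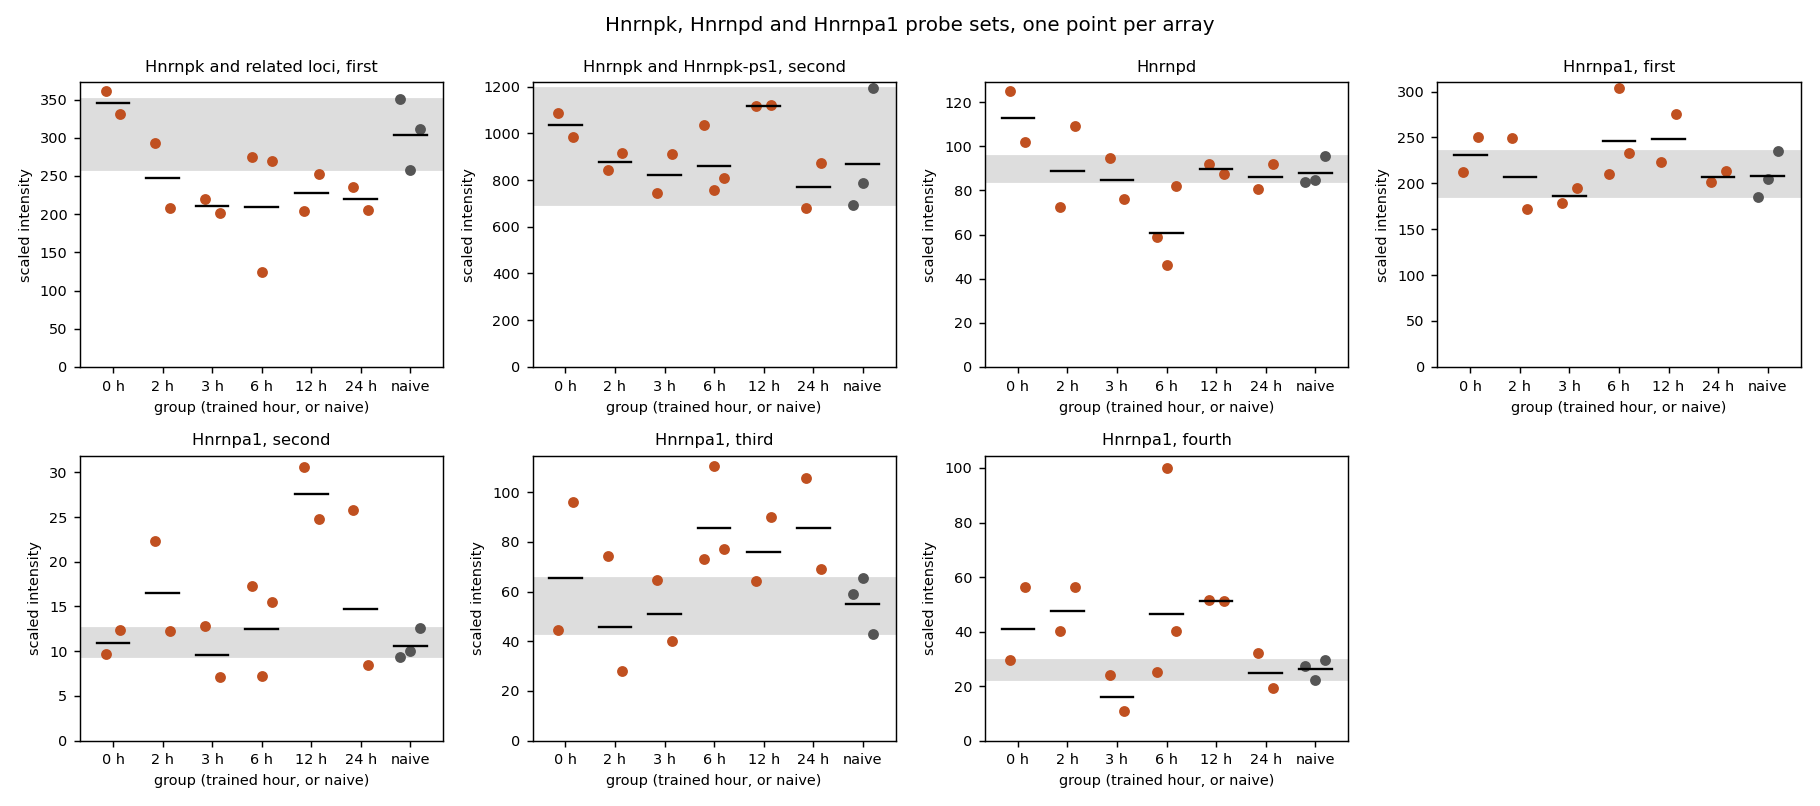
Scaled intensity of the Hnrnpk, Hnrnpd and Hnrnpa1 probe sets, 1 point per array, by trained hour and naive, with black lines at geometric means and grey bands over the 3 naive arrays. Hnrnpd shows both 0 h arrays, at 125 and 102, above the band and all 6 h arrays below it. The second Hnrnpa1 panel (rc_AA799893_at), above the filter only on trained arrays, shows the 12 h arrays at 30.6 and 24.8 above the band.

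All 11 probe sets passed the filter on low values, and 6220 probe sets were tested in all. No member passed an adjusted p of 0.05 when trained and naive arrays were compared, where 0% of all tested probe sets did. None had an unadjusted p under 0.05 in that comparison, against a background of 5.35%, or 333 probe sets. The smallest adjusted p among the 11 was 0.953, for Adarb1, whose choice used the same trained arrays and the same estimate of the spread. The intervals were wide: for Adar they ran from -1.04 to 0.30, and for rc_AA799893_at from -0.36 to 1.25 on the log2 scale.

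**Figure D4:**
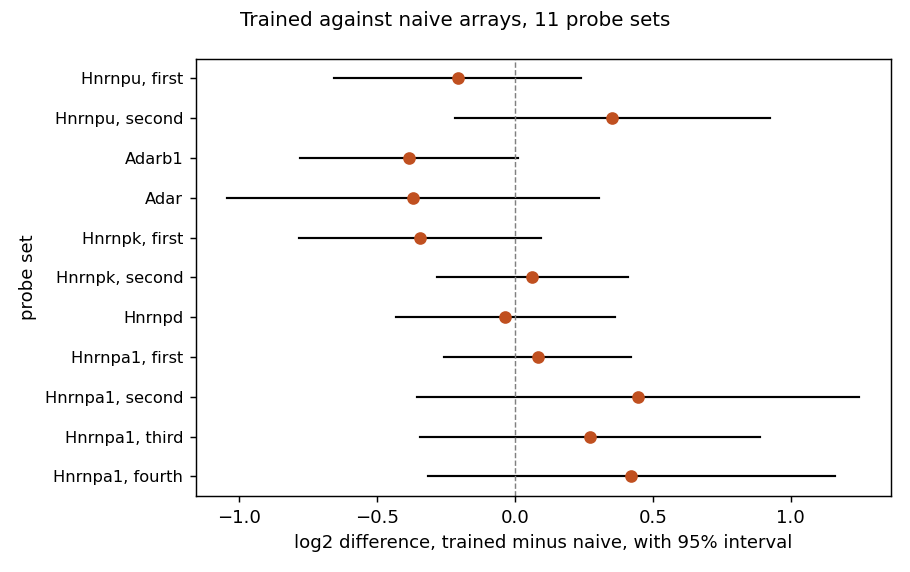
Log2 difference of the trained hours minus naive for the 11 probe sets, points for the limma estimate and lines for its 95% interval. Every interval crosses 0, and Adarb1, at -0.38 with an interval from -0.78 to 0.01, comes closest to excluding it. Its choice used the same trained arrays and estimate of the spread, so its place among the 11 is not free of that choice.

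At single hours the 8 probe sets of Adar, Hnrnpk, Hnrnpd and Hnrnpa1 gave no adjusted p under 0.05. The background of such calls was 0% at 0 h, 0.0161% at 2 h, where the 1 probe set called was that of Bckdha, named here after its values were seen, and 0% at 3 h, 6 h, 12 h and 24 h. It was 0% in both F tests. At an unadjusted p under 0.05, 0 of the 8 were called at 0 h (background 5%), 0 at 2 h (7.67%), 0 at 3 h (4.31%), 1 at 6 h (9.41%), 1 at 12 h (10.1%) and 0 at 24 h (4.44%). The 7 group F test called 1 of the 8 (background 10.3%) and the test among the trained hours called 1 (10.8%). These counts are near their backgrounds, and the call at 12 h was rc_AA799893_at, which passed the filter only on trained arrays. At 3 h all 8 were below naive, with a median difference of -0.15 beside -0.07 over all tested probe sets, but the direction depended on the scaling: with quantile normalization 5 of 8 were below, and with median centring 3 of 8 were, with a median of 0.04. Median centring moved the 3 h median of all tested probe sets to 0.11. At 0 h 7 of 8 were above under all 3 scalings, with a median of 0.22 beside -0.02 under the scaling used throughout. The 8 probe sets measure 4 genes, several of them Hnrnpa1, against the same 3 naive arrays, and rc_AA799893_at is among those above at 0 h. Their smallest unadjusted limma p at 0 h was 0.195, and the share of all tested probe sets above naive was not counted.

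Counted by arrays alone, the groups did not overlap naive for 1 of these 8 probe sets at 0 h, where 21.7% of all tested probe sets did not overlap. The count was 1 at 2 h (27%), 1 at 3 h (19.3%), 2 at 6 h (10.9%), 3 at 12 h (27.7%) and 3 at 24 h (20.6%). With Hnrnpu and Adarb1 included the counts over 11 were 4, 3, 3, 2, 5 and 4, from which nothing is read, since their hours chose them. The 6 hours share the same 3 naive arrays. Among the 3 at 12 h is rc_AA799893_at, which passed the filter only on trained arrays.

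In the F statistic among the trained hours, which chose them, the first Hnrnpu probe set ranked 1 of 6220 (F = 11.8) and Adarb1 ranked 5 (F = 9.03). Just outside stood Lcat, the plasma cholesterol esterifying enzyme, at rank 6 (F = 8.97), and between them stood Bckdha, a subunit of the branched-chain ketoacid dehydrogenase, at rank 2 (F = 11.3). These values are the basis of the choice. Leaving out 3 h replicate 1 placed Hnrnpu at rank 49, and leaving out 2 h replicate 1 placed Adarb1 at rank 98.

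Among 5123 probe sets of other genes, those whose log2 values across the 16 arrays were most like the first Hnrnpu probe set were Taf6, a general transcription factor subunit (r = 0.87), Kcnh5, a potassium channel (0.84), and Gabrr1, a GABA receptor subunit (0.83). Adgrl3, an adhesion receptor, and the nuclear pore gene Nup153 followed, both at 0.83. The most opposite were Rcn3 (-0.76), the complex I gene Ndufb1 (-0.75) and glutathione reductase, Gsr (-0.75). Spearman's rho for the 5 most like was 0.58 to 0.79. Without the 2 arrays of 3 h, the 5 positive correlations were 0.31 to 0.65, so much of the likeness rests on those arrays, and the 3 opposite ones were -0.69 to -0.58.

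For Adarb1, the most like of 5124 were Gria1, an AMPA receptor subunit (r = 0.85), the peptide transporter Tap2 (0.83), the pseudouridine synthase Dkc1 (0.82), the death receptor Tnfrsf21 (0.80) and Dpy19l1 (0.78). The most opposite were Ginm1, Dut and Timm10b, each at -0.80. Spearman's rho for the 5 most like was 0.69 to 0.78. Without the 2 arrays of 2 h the 5 positive correlations were 0.69 to 0.74, and the opposite ones were -0.50 for Ginm1, -0.54 for Dut and -0.66 for Timm10b. These are descriptions over arrays that share scaling and tissue, picked as the extremes of all probe sets.

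The genes whose transcripts are known to be edited were measured as levels only, since the array does not read inosine. Of 13 listed, 10 were on the array and 8 were tested. In trained samples 1 was above naive and 7 were below, with a median difference of -0.24 beside -0.01 over all tested probe sets. None had an unadjusted p under 0.05. All 8 were below naive at 3 h (median -0.40) and at 24 h (median -0.29), and the 3 naive arrays enter both comparisons. Over all tested probe sets the medians at these hours were -0.07 and -0.004, and the share below naive was not counted. Of the 8, the GABA receptor gene Gabra3 and the serotonin receptor gene Htr2c were above the filter on only 5 arrays each. The direction of these genes is therefore uncertain. With quantile normalization 7 of the 8 genes were below at 3 h and 8 at 24 h, and with median centring 7 were below at each of these hours. Median centring gave the 8 genes a median of -0.22 at both hours, beside 0.11 at 3 h and 0.06 at 24 h over all tested probe sets. Of the splicing factors described below, 12 of 15 were below naive at 3 h (median -0.24) and 11 at 24 h (median -0.15). With median centring 9 of 15 were below at each hour. Of the other hnRNP genes 6 of 9 were below at 3 h (median -0.24) and 7 at 24 h (median -0.13). Of the genes of mRNA stability, transport and translation 4 of 7 were below at 3 h (median -0.01) and 5 at 24 h (median -0.13). By summed intensity, markers of the choroid plexus were below all naive arrays at both hours, and those of oligodendrocytes and endothelium at 24 h. Endothelial markers summed to 333 to 357 at 24 h, against 387 to 579 in naive samples. By the mean log2 deviation of each list from its average over the arrays, microglia markers were also below naive at both hours. So were astrocyte markers at 24 h, though the summed intensities of both these lists overlapped naive. The summed intensity of the choroid plexus markers was 281 to 415 at 3 h and 230 to 278 at 24 h, against 2183 to 5339 in naive samples. That of the 6 of 7 listed oligodendrocyte markers on the array was 3922 to 4797 at 3 h and 2614 to 2874 at 24 h, against 4170 to 5691 in naive samples, and none of the 6 lay at the lowest level on every array. The part of these cell types in the differences was not tested.

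Gria2, named outside the rule because its transcript is the known target of Adarb1, differed by -0.11 (SE 0.16). Gria3, another AMPA subunit, differed by -0.39 (SE 0.29), with a second probe set at -0.84 (unadjusted p = 0.0580, and 0.00960 in the 7 group test), and the calcium channel gene Cacna1d by -0.32 (SE 0.26). The GABA receptor gene Gabra3 differed by -0.40 (SE 0.36). Cyfip2, a regulator of actin and translation, was the substrate with the smallest p in the 7 group F test, 0.00520, with an adjusted p of 0.299. It read 460 and 539 at 0 h, 227 and 263 at 2 h, and 353 and 234 at 3 h, against 405, 369 and 392 on the naive arrays. Its 0 h arrays lay above naive and its 2 h and 3 h arrays below, where 21.7%, 27% and 19.3% of all tested probe sets did not overlap naive. It read 428, 361 and 396 at 6 h, 394 and 473 at 12 h, and 409 and 352 at 24 h, which overlap naive.

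**Figure D5:**
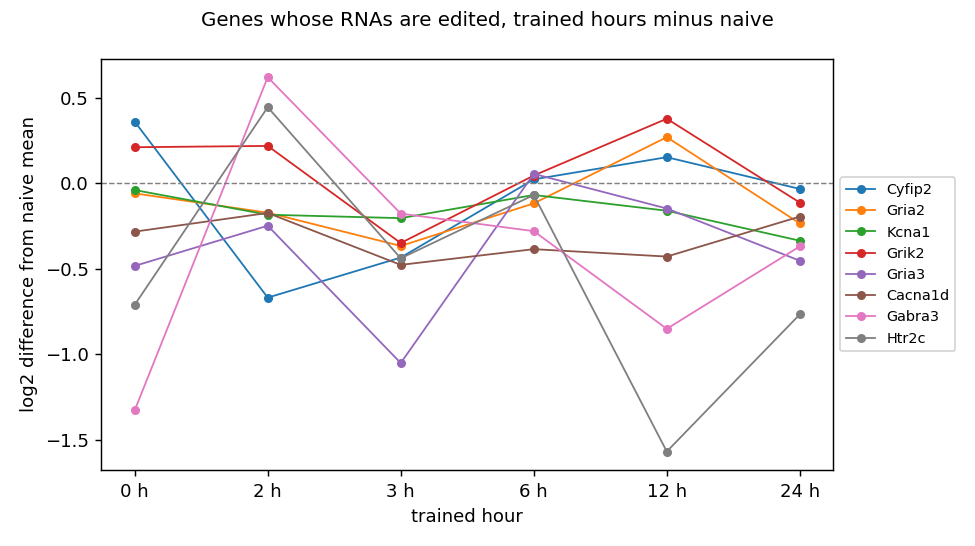
Log2 difference from the naive mean for 8 edited genes at each trained hour, evenly spaced on the axis, 1 line per gene. All 8 points lie below 0 at 3 h and at 24 h, where the medians over all tested probe sets were -0.07 and -0.004. With median centring 7 of 8 lie below 0 at each of these hours. Most of the splicing factors tested, not drawn here, were also below naive at these hours.

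Of 26 other hnRNP genes 9 were tested, 1 above and 8 below naive in trained samples, with a median difference of -0.13 and none with an unadjusted p under 0.05. With quantile normalization 7 were below naive and with median centring 6. Hnrnpf, which binds guanine-rich RNA, differed by -0.30 (SE 0.16, unadjusted p = 0.0897, adjusted p = 0.981), Hnrnpa3 by -0.28 (SE 0.25) and Pcbp4 by -0.15 (SE 0.16). A second Hnrnpa3 probe set, which did not stand for the gene in the count, went the other way, by 0.55 (unadjusted p = 0.0251), so the direction of that gene was not settled.

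Of 40 splicing factors 15 were tested, 5 above and 10 below, with a median of -0.11. None passed when trained and naive arrays were compared. Khdrbs1, the signal-responsive splicing factor Sam68, differed by -0.44 (SE 0.22, unadjusted p = 0.0624, adjusted p = 0.961). Tra2b and Celf2 differed by -0.27 (SE 0.19) and -0.18 (SE 0.15). The other 3 Tra2b probe sets differed by -0.56, -0.35 and 0.05.

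In the 7 group test 3 of the 15 splicing factors had an unadjusted p under 0.05 (background 10.3%), all with an adjusted p of 0.480. Safb, a relative of Hnrnpu in its binding to the nuclear scaffold, read 81.4, 75.1 and 147 at 6 h, against 175, 227 and 122 on the naive arrays, which overlap. Rbfox2, a regulator of neuronal exons, read 95.9 and 109 at 2 h and 85.7, 92.2 and 87.9 at 6 h. The naive arrays read 33.6, 72.1 and 35.2, with no overlap at either hour. Of all tested probe sets 27% did not overlap naive at 2 h and 10.9% at 6 h. Rbfox2 read 31.1 and 28.8 at 0 h, below naive, and 49.0 and 42.2 at 12 h. The arrays of 1 hour lay far apart at 3 h (84.2 and 19.6) and at 24 h (73.3 and 21.5). Sf3b1, a core spliceosome gene, exceeded the filter on 7 of 16 arrays.

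Of 38 RNA-binding proteins of mRNA stability, transport and translation 7 were tested, 3 above and 4 below, with a median of -0.11, and none had an unadjusted p under 0.05 in this comparison. The neuronal stabiliser Elavl4 differed by 0.20 (SE 0.17), Ybx3 by -0.28 (SE 0.25) and Purb by 0.24 (SE 0.26).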

How the data were processed

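The authors' deposited table held 1 intensity for each array and probe set. How those intensities were extracted, background-corrected and scaled is not stated in the labels or the file header. Probe sets were named from the platform annotation: of 8740 that were not controls, 7006 had 1 symbol, 308 several and 1426 none here. Each array was scaled to the median of the arrays' 2% trimmed means (105). A lowest level of 5.05 (20th percentile over all arrays) replaced smaller values before log2, and probe sets above 16.9, the 40th percentile, on at least 2 arrays were tested (6220).

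One limma fit (version 3.58.1, R 4.3.3) used all 7 groups with a variance trend, and p-values were Benjamini-Hochberg adjusted over all tested probe sets. The threshold was 0.05. Trained against naive weights the 6 hours equally. The fit was tested on simulated data. No detection calls or scan data were used, and the number of arrays limits the precision. The members and lists were chosen with earlier results of these data known. Named genes were all member probe sets, list genes with an unadjusted p under 0.05 in trained against naive or the 7 group test, up to 3 others per list with the smallest p in trained against naive, and the 5 most and 3 least like each leading probe set. Where a gene had several probe sets, the one with the highest mean level stood for it in the lists. Alternatives changed the scaling, lowest level, filter, variance model, covariates and arrays.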

Additional observations from a re-analysis of the deposited data

Results flagged for a closer look

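On the first Hnrnpu probe set, 0 h, 2 h and 12 h lay above all naive arrays and 3 h lay below them. The difference on the log2 scale was 1.92 between 0 h and 3 h, 2.15 between 2 h and 3 h and 2.02 between 12 h and 3 h. For Adarb1, 2 h lay above all naive arrays and 4 other hours lay below. The 2 h value exceeded that of 0 h by 1.78, of 3 h by 1.22, of 12 h by 1.60 and of 24 h by 1.11. For Hnrnpd, 0 h lay above and 6 h below all naive arrays, with a difference of 0.90. These were picked out because every array of one hour moved one way from naive and every array of another moved the opposite way. At a single hour 10.9% (6 h) to 27.7% (12 h) of all tested probe sets did not overlap naive. The share with opposite hours was not counted. Hnrnpu and Adarb1 were chosen for varying among these hours, so nothing is read from their entries. The differences between hours were not tested, each hour has 2 or 3 arrays, and all share the 3 naive arrays.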

How the results depend on the processing

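In 28 alternative fits, of which 16 leave out 1 array, none of the Adar, Hnrnpk, Hnrnpd and Hnrnpa1 probe sets passed in any of the 250 comparisons run (smallest adjusted p 0.144). Of the 11 trained against naive differences 5 kept their direction throughout. Hnrnpd, at -0.03, became 0.023 with quantile normalization, 0.0016 with median centring, 0.0091 with array weights, 0.081 with the replicate block and 0.37 with Ttr as covariate, and -0.084 to 0.025 over the fits without 1 array. With Ttr as covariate Adar became 0.37, M12156_at -0.21 and rc_AA799893_g_at -0.59. rc_AA799582_at became -0.031 with the beta-actin ratio and -0.099 to 0.29 without 1 array, and D14048_g_at -0.13 to 0.63 without 1 array. The 24 h difference of rc_AA799893_g_at became -0.73 with Ttr. Of the 48 single-hour differences of Adar, Hnrnpk, Hnrnpd and Hnrnpa1, 29 changed sign in at least 1 alternative fit, 26 of them with all arrays kept, and none passed in any. Of the 18 of Hnrnpu and Adarb1, 8 changed sign, of which the largest as reported was 0.44. The cause was not tested.

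The number of probe sets called among all those tested also moved. With no filter it was 1 for trained against naive, 2 at 0 h, 8 at 2 h, 27 at 12 h, 23 over the 7 groups and 24 among the trained hours. With the lowest level at the 40th percentile it was 2 at 2 h, 11 at 12 h, and 4 in both F tests. Without a variance trend it was 1 at 12 h and 2 in both F tests. With only the groups compared it was 0 at 2 h, 2 at 12 h and 4 at 24 h. Array weights gave 6 at 24 h, and the beta-actin covariate gave 2 at 3 h. The 1 call at 2 h was 0 with quantile normalization, the replicate block, the beta-actin ratio or Ttr. Leaving out 1 array gave 0 to 17 calls for trained against naive, 0 to 11 at 2 h, 0 to 9 at 3 h, 0 to 29 at 6 h, 0 to 23 at 12 h, 0 to 12 at 24 h, 0 to 8 over the 7 groups and 0 to 7 among the trained hours. Replicate numbers showed no clear pairing of the samples: deviations of same-numbered arrays correlated at a median of 0.02, others at -0.02, and 7 of 16 arrays correlated best with their own number. In a group of 2 arrays the deviations mirror each other, so these medians are not independent and cannot exclude a pairing. rc_AA799893_at was not tested under the stricter filter.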
